A study of Rattus norvegicus with 8 samples.

Results

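The circadian clock genes of the liver were followed in male Goto-Kakizaki (GK) rats, an inbred lean model of type 2 diabetes. The 10 genes were Arntl (current symbol Bmal1), Clock, Npas2, Per1, Per2, Per3, Cry1, Nr1d1, Nr1d2 and Dbp, chosen by name and not by their values. All 17 probe sets that the platform annotation gives to exactly 1 of them were taken, out of 20826 named probe sets on the array. A single probe set stood for 6 of the genes, Per2 and Per3 had 2 each, Nr1d2 had 3 and Clock had 4. Liver RNA was measured in 4 rats fed for 12 weeks on the AIN-93G diet with an extract of persimmon peel (PP) and in 4 control rats fed AIN-93G alone. All 8 rats were 18 weeks old and of the same strain, so the diabetic background was shared by both diets and no non-diabetic strain was compared here. The dose of the extract and the hour at which each liver was taken were not stated in the labels, while the lights were switched on at 0800 in a light-dark cycle.

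As background, the mammalian clock is a loop of transcription and repression that runs in nearly every cell. ARNTL pairs with CLOCK or its relative NPAS2, binds E-box sequences and switches on the Per and Cry genes, whose proteins return to block the pair, and also Nr1d1, Nr1d2 and Dbp. NR1D1 and NR1D2 (REV-ERB alpha and beta) repress Arntl through ROR elements, and DBP carries the rhythm to output genes through D-box sequences. In rodent liver, Arntl and Npas2 mRNA are high in the part of the day when Dbp, Per3 and Nr1d1 mRNA are low, and the hour of feeding sets the phase.

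Promoters of the clock genes were searched for the elements named above, and the stretches that hold a match are shown as sequence context. The 250 bases before each annotated start in RefSeq (build GRCr8) were searched on both strands for the E-box CACGTG, its variant CACGTT, the D-box TTATGTAA and the core TAGGTCA of the ROR element. There were 11 windows for 9 of the genes. Cry1 had no entry. Windows of Arntl, Per2 and Nr1d1 held a match, and those of Clock, Npas2, Per1, Per3, Nr1d2 and Dbp held none of these letters. Matches are in capitals, and each line is the gene's own strand, 5′ to 3′.
Bmal1 (Arntl), chr1:176766287-176766327, plus strand, ROR core: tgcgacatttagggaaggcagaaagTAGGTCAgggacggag
Per2, chr9:99497025-99497210, minus strand, D-box and then the E-box variant: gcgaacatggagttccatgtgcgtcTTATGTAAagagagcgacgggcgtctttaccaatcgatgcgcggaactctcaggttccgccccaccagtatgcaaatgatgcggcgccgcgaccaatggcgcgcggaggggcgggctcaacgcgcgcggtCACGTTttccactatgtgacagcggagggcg
Nr1d1, chr10:84231956-84232011, minus strand, E-box variant on the opposite strand: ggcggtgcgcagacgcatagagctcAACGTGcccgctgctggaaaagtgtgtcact
Nr1d1, second start, chr10:84229615-84229670, minus strand, E-box: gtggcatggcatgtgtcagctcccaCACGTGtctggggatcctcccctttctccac
The ROR core lay 16 to 10 bases before the Arntl start and was found in 2.26% of all 33469 promoter windows. The D-box of Per2 lay 192 to 185 bases before its start, a match that 0.828% of windows had, and its E-box variant lay 62 to 57 bases before it (4.07% of windows). The E-box of Nr1d1 began 191 bases before the second start (5.59% of windows). A match is a description of letters and was not tested as a binding site.

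The arrays of the 2 diets had median signals of 33.2 to 39.2 units, where a unit is the linear MAS5 signal of a probe set. The 27 control sets for Bacillus subtilis RNA reached at most 14.5 units. Beta-actin has control sets for parts of its transcript, and its middle to 3′ ratio, a measure of how complete the RNA or its copy is, was -1.06 ± 0.11 (SD, n = 4) on the log2 scale in PP livers and -0.76 ± 0.02 (SD, n = 4) in control livers, without overlap. The beta-actin ratio below means this one. For the control gene GAPDH the diets overlapped, at -0.64 to -0.53 in PP livers and -0.63 to -0.55 in control livers. With the 5′ part in place of the middle, GAPDH overlapped too, at -0.54 to -0.37 in PP and -0.41 to -0.17 in control livers. Beta-actin then had -2.286 to -1.823 in PP and -1.822 to -1.546 in control livers, barely apart. A gap without overlap was thus found for beta-actin only. Hepatocyte markers were abundant in all 8 samples, with Serpina1 at 10707 to 11914 units in PP livers and 11820 to 12216 units in control livers. The summed signal of the 10 hepatocyte markers was 85193 to 89838 units in PP livers and 93078 to 100187 units in control livers, and 0 of 10 had a higher mean on the PP diet. These markers included Tat, which is also on the list of daily cycling genes used below. The summed signals of the 5 cholangiocyte markers on the array were 253 to 261 units in PP livers and 224 to 309 in control livers, and 2 of 5, Krt7 and Cftr, stayed below the bacterial controls. Those of the 4 macrophage markers were 2243 to 3552 and 1927 to 2728 units in PP and control livers, and 0 of 4 stayed below the bacterial controls. The 5 endothelial markers summed to 3659 to 4601 and 4491 to 4751 units, the 6 stellate cell markers to 723 to 922 and 785 to 1151 units, and the 5 lymphocyte markers to 162 to 252 and 210 to 242 units in PP and control livers, and of these 16 only Cd3d and Cd79b stayed below the bacterial controls. A higher mean on the PP diet was also absent in the stellate cell markers (0 of 6) and rare in the endothelial markers (1 of 5). It was found in 2 of 5 cholangiocyte, 3 of 4 macrophage and 3 of 5 lymphocyte markers. The part of the beta-actin ratio and of the cell type markers in the diet differences was not tested. The exception was the fits with the beta-actin ratio as a covariate, which are given with the results.

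Few of the core clock probe sets were called between the diets. In the comparison by limma, at a Benjamini-Hochberg adjusted p under 0.05 over all tested probe sets, 1 of the 12 clock probe sets with enough signal to be tested was lower on the PP diet and 0 were higher. This was a set of Nr1d2. Over the whole array 4.53% of 15521 tested probe sets were lower and 0.425% were higher, so the share of clock sets called was near the background. Lower sets made up 91.4% of all calls, and 68.7% after quantile normalization. At an unadjusted p under 0.05, 3 clock sets were lower and 0 were higher, against 13.4% and 6.19% of all tested sets. A plain test per probe set called 0 clock sets, and over all tested sets it called 3 lower and 0 higher. The median log2 fold change of the 12 sets was -0.10, against -0.01 over all tested sets. The 12 sets covered 9 genes, since the only Arntl set had a mean of 29.1 units, under the 34.4 units needed. In these bulk samples, fewer cells of a type and less RNA per cell cannot be told apart.

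**Figure D1:**
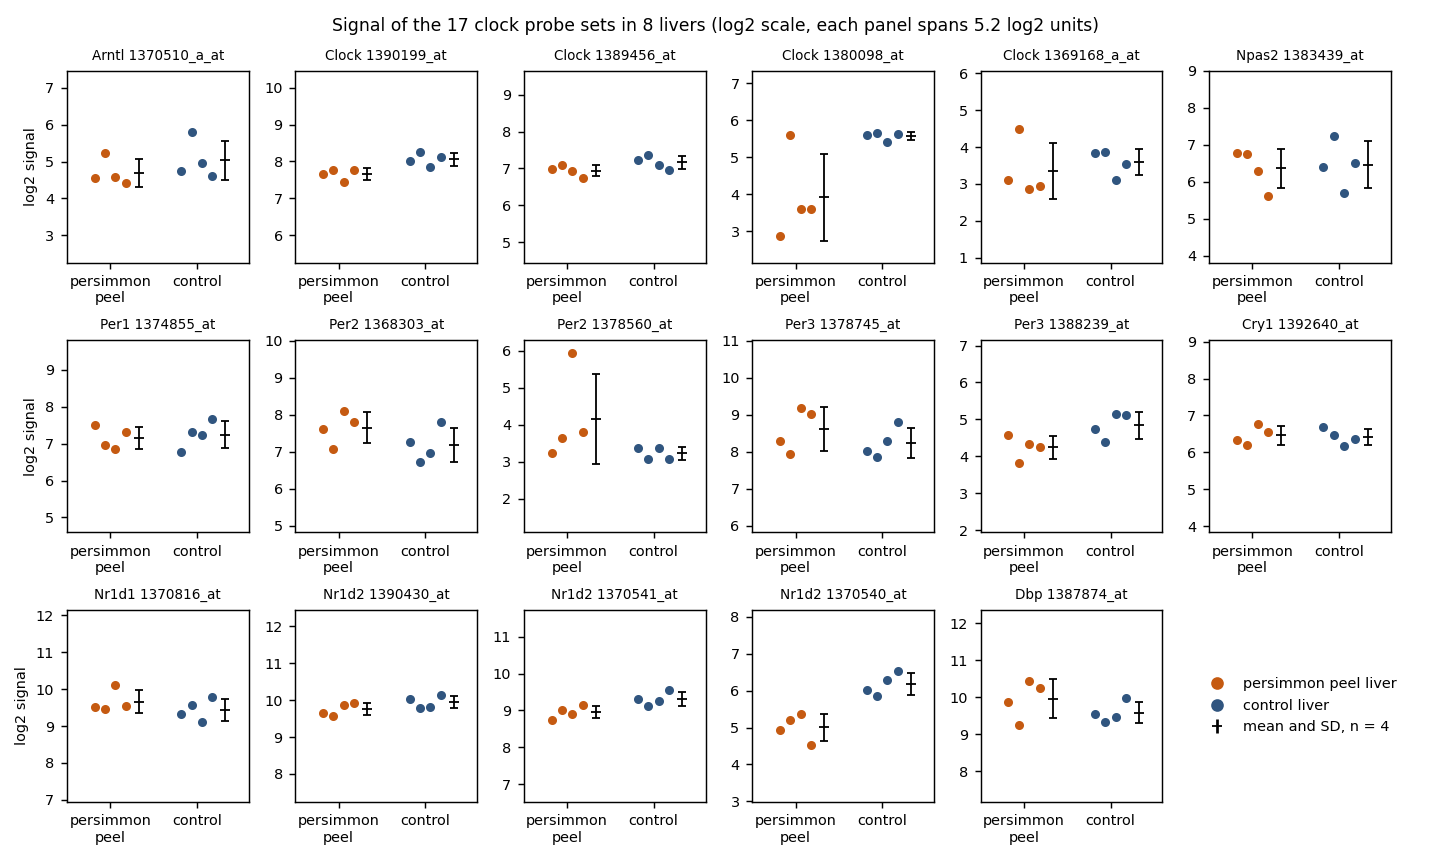
Log2 signal of each of the 17 clock probe sets, 1 point per liver, with PP livers left and control livers right in each panel and the mean and SD (n = 4) beside them. The diets lie apart in the Nr1d2 set 1370540_at and in the Clock set 1390199_at, and overlap in the other 15 sets.

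Among the activators, Arntl encodes the bHLH-PAS partner on which the loop depends. Its signal was 23.3, 37.8, 23.9 and 21.3 units in PP livers 1 to 4, against 27, 55.4, 31.1 and 24.5 units in control livers 1 to 4. Replicate 2 was the highest liver on both diets, and 3 of 4 PP livers lay below every control liver. The log2 difference was -0.34, which was not tested because of the low signal. In the fit with no filter on dim sets its adjusted p was 0.696 (SE 0.31).

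Clock encodes the partner of ARNTL, and the brightest of its 4 probe sets (1390199_at) read 202, 220, 174 and 218 units in PP livers and 257, 307, 232 and 276 units in control livers. All 4 PP livers lay below all 4 control livers. It had a log2 fold change of -0.39 (SE 0.12), and the adjusted p of 0.0763 did not pass. Under the other settings it ran between 0.0569 and 1. Of the tested sets over the array, 10% lay apart in this direction, and of the 12 tested clock sets 2 did.

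The other Clock sets also had negative differences. Set 1389456_at averaged 123 ± 12.9 units in PP livers and 144 ± 17.8 units in control livers (SD, n = 4 each; log2 fold change -0.23, SE 0.13, limma adjusted p = 0.351). The dim set 1380098_at read 7.26, 48.7, 12.2 and 12.1 units in PP livers, against 48.9, 50, 42.3 and 49.3 units in control livers. PP livers 1, 3 and 4 were under the highest bacterial control signal, and PP liver 2 was within the range of the controls. The log2 difference was -1.66, with an uncertain size since most PP values lie at background level, and it was -0.94 with a pseudocount of 16 and -0.97 without PP livers 1 and 3. The limma fit with no filter gave an SE of 0.47 and an adjusted p of 0.115. The dimmest set, 1369168_a_at, lay between 7.33 and 22.4 units in PP livers and between 8.63 and 14.7 units in control livers, a level close to the bacterial controls. Over the 8 livers the 4 Clock sets correlated with each other with r between 0.512 and 0.744, which is a description of values that share their arrays.

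Npas2, the relative of Clock that can replace it, varied more within each diet than between the diets. Its signals were 109, 108, 78.2 and 49.2 units in PP livers and 84.2, 152, 51.7 and 90.6 units in control livers. The log2 fold change was -0.10 (SE 0.29, limma adjusted p = 0.885), and its sign turned without PP liver 4 (0.14) or without control liver 2 (0.16).

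**Figure D2:**
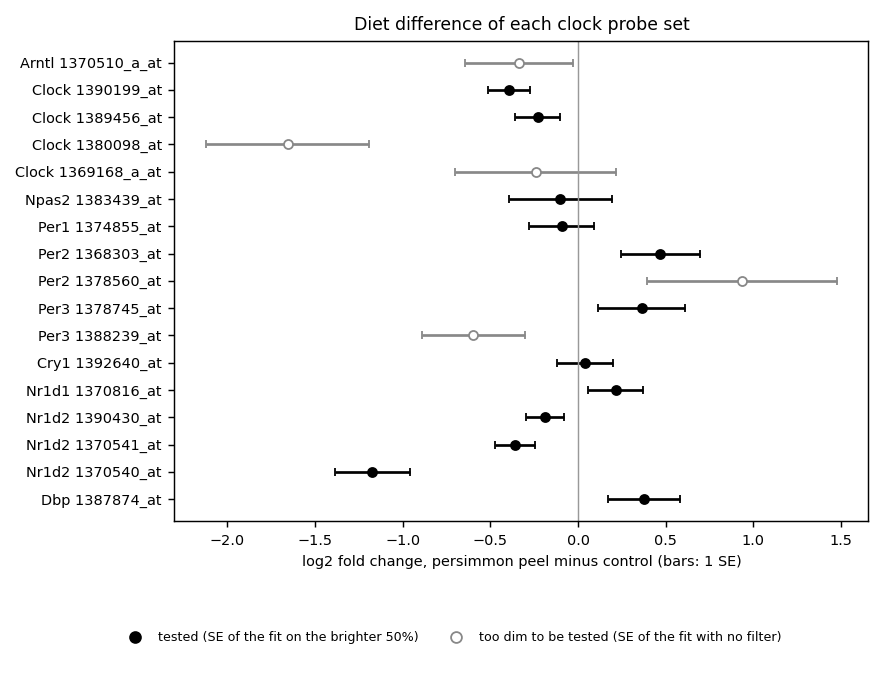
Log2 fold change of each clock probe set, PP minus control, with bars of 1 SE, ordered by role and, within a gene, from the highest to the lowest signal. Nr1d2 1370540_at, at -1.17, is the only set that passed the test, and open points mark the 5 sets too dim to be tested.

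The Period genes encode the repressors whose mRNA follows ARNTL activity. Per2 set 1368303_at read 197, 136, 277 and 223 units in PP livers and 155, 105, 125 and 222 units in control livers. The diets overlapped, with PP livers 3 and 4 above every control liver. This gave a log2 fold change of 0.47 (SE 0.23, limma adjusted p = 0.27). The second Per2 set, 1378560_at, lay at 9.42, 12.4 and 14.1 units in PP livers 1, 2 and 4 and at 62 units in PP liver 3, against 8.44 to 10.4 units in control livers. Only PP liver 3 exceeded the bacterial control sets in it, and that liver was also the highest in the brighter Per2 set.

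Per3 set 1378745_at read 312, 243, 580 and 519 units in PP livers and 257, 231, 315 and 445 units in control livers. PP livers 3 and 4 were again the highest. The difference was 0.36 on the log2 scale (SE 0.25, limma adjusted p = 0.452). The dim Per3 set 1388239_at differed the other way, with 23.8, 14.2, 20.2 and 19 units in PP livers and 26.6, 20.8, 35.6 and 34.6 units in control livers, a log2 difference of -0.60 that was not tested (adjusted p = 0.407 in the limma fit with no filter). The 2 Per3 sets correlated with r = 0.108 over the 8 livers, so that for Per3 the choice of probe set decides the sign.

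Per1, the Period gene that also answers acutely to hormones, averaged 145 ± 30.7 units in PP livers and 156 ± 39.5 units in control livers (SD, n = 4 each). Its log2 fold change was -0.09 (SE 0.19, limma adjusted p = 0.827) and turned sign without PP liver 3 (0.01) or control liver 4 (0.05). Cry1, the partner of the PER proteins in repression, averaged 89.1 ± 15.8 units in PP livers and 86.3 ± 13.1 units in control livers (SD, n = 4 each). Its log2 fold change of 0.04 (SE 0.16, limma adjusted p = 0.92) turned to -0.06 without PP liver 3 and to -0.04 without control liver 3. The PP livers lay inside the range of the control livers for Per1, and for Cry1 only PP liver 3 lay outside it, at 109 units.

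The REV-ERB receptors gave the single call. Nr1d2 set 1370540_at read 30.4, 36.5, 41.1 and 23.2 units in PP livers and 64.7, 58.1, 78.7 and 93 units in control livers. All 4 PP livers were below all 4 control livers, at less than the lowest control value of 58.1 units. The log2 fold change was -1.17 (SE 0.21, limma adjusted p = 0.0067), and it stayed past the threshold with each array left out in turn (adjusted p between 0.0051 and 0.0347). The PP mean of 32.8 units is under the lowest mean signal that was tested, 34.4 units, which makes the size of the difference uncertain. The set entered the test through its control livers, with a mean of 73.6 units. The fits with an array left out kept this choice of sets, made on all 8 livers. In the fit with no filter on dim sets the limma adjusted p was 0.0247. With the beta-actin ratio as a covariate, a fit that separates ratio and diet poorly, the value was -1.02 and the adjusted p was 1. That fit called 0 of all 15521 tested sets, so the loss of the call was not particular to Nr1d2. Without PP livers 1 and 3 together the adjusted p was 0.0502 (log2 fold change -1.31).

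The brighter Nr1d2 sets differed less. Set 1370541_at read 430, 518, 476 and 562 units in PP livers, against 636, 552, 610 and 756 units in control livers, so that 3 of 4 PP livers were below every control liver. Its log2 fold change was -0.36 (SE 0.11, limma adjusted p = 0.0883). The brightest set, 1390430_at, averaged 869 ± 102 units in PP livers and 989 ± 117 units in control livers (SD, n = 4 each; log2 fold change -0.19, SE 0.11, limma adjusted p = 0.36). All 3 sets were thus lower in their means on the PP diet, by amounts from -1.17 in the dimmest to -0.19 in the brightest, and they correlated over the livers with r between 0.517 and 0.771. With the test restricted to 1 set per gene, the brightest, 0 of 9 clock genes were called. Where these probe sets lie along the Nr1d2 transcript was not analysed here.

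Nr1d1, the other REV-ERB, read 734, 702, 1112 and 745 units in PP livers and 640, 757, 550 and 885 units in control livers. PP liver 3 stood above the rest, and the remaining PP livers lay within the control range. The log2 fold change was 0.21 (SE 0.16, limma adjusted p = 0.486). The sign of this difference was opposite to that of the Nr1d2 sets, and a difference between the receptors was not tested.

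Dbp, the PAR bZIP factor that passes the rhythm to output genes, had signals of 937, 611, 1392 and 1224 units in PP livers and 753, 637, 710 and 1012 units in control livers. PP livers 3 and 4 were above every control liver and PP liver 2 was below every one. The log2 fold change was 0.38 (SE 0.21, limma adjusted p = 0.337). Without PP liver 2 it was 0.61 and passed (limma adjusted p = 0.0267), the one case in which a clock set was called higher. That fit called 267 of all tested sets higher, against 66 in the main comparison, so the gain of higher calls was not particular to Dbp. With the beta-actin ratio as a covariate the values of Dbp (-0.56), Per2 (-0.41), Per3 (-0.32), Cry1 (-0.24) and Nr1d1 (-0.12) all turned negative, each with an adjusted p of 1.

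**Figure D3:**
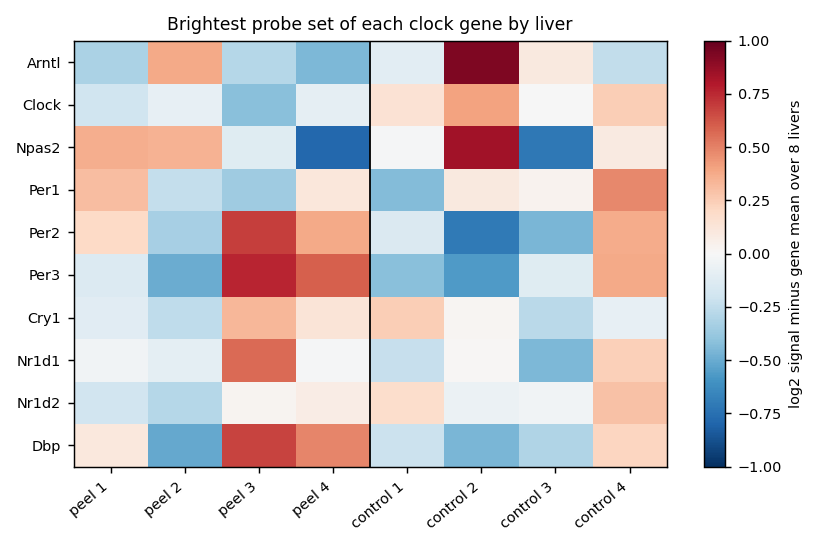
Log2 signal of the brightest probe set of each clock gene minus that gene's mean over the 8 livers, PP livers left of the line and control livers right. PP liver 3 and control liver 2 are opposite in Arntl, Per2, Per3 and Dbp.

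Livers on the same diet also differed from each other in the clock genes. Control liver 2 had the highest signal of all 8 livers for Arntl, Clock and Npas2 and the lowest for Per2 and Per3. PP liver 2 was second for Arntl and had the lowest Dbp. PP liver 3 had the highest Per2, Per3, Dbp, Nr1d1 and Cry1 and the lowest Clock. These ranks are a description of which livers were high or low.

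How Arntl related to the other genes was examined over the 8 livers, with the brightest set of each gene and a permutation test that was exact over all pairings and two-sided, adjusted over 9 relations. By Pearson's r, Per2 was the only gene past the threshold, with r = -0.86 (exact p = 0.00248, adjusted p = 0.0223) and Spearman rho = -0.86 (exact p = 0.0107, adjusted 0.0482). Dbp followed with r = -0.79 (exact p = 0.0135, adjusted 0.0609) and rho = -0.86 (exact p = 0.0107, adjusted 0.0482). For Per3 r was -0.74 (exact p = 0.0268, adjusted 0.0804) and rho was -0.76 (exact p = 0.0368, adjusted 0.11). Npas2 (r = 0.62, rho = 0.48) and Clock (r = 0.59, rho = 0.67) had positive values that did not pass (exact permutation test, adjusted p = 0.231 for both r, 0.438 and 0.187 for the rho values). Nr1d2 (r = -0.39, rho = -0.36), Cry1 (r = -0.31, rho = -0.36), Nr1d1 (r = -0.26, rho = -0.29) and Per1 (r = -0.10, rho = -0.33) did not pass either (exact permutation test, adjusted p between 0.481 and 0.821).

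Control liver 2 and PP liver 2 lay farthest from the Arntl median. Without them, r was -0.83 for Per2 (exact permutation test, p = 0.0389), -0.81 for Dbp (exact p = 0.0528) and -0.61 for Per3 (exact p = 0.212) over 6 livers. The value was then -0.17 for Npas2 and 0.34 for Clock, so the positive r of Npas2 rested on those livers. Within the diets, as deviations from each diet's mean permuted inside the diet, r was -0.83 for Per2, -0.75 for Dbp, -0.69 for Per3 and -0.78 for Nr1d2 (exact permutation test, adjusted p = 0.0625 for Per2, Dbp and Nr1d2, 0.152 for Per3). None of the 9 relations passed in that form, and 3 had an unadjusted p under 0.05. After quantile normalization or median centring of the arrays, Per2 (r = -0.96 in both), Dbp (-0.88 in both) and Per3 (-0.83 in both) passed. With the mean of all sets of a gene in place of the brightest, r was -0.56 for Per2 and 0 relations passed. No relation passed either without PP liver 1 or 4 or without control liver 1, 2 or 4, where r for Per2 lay between -0.88 and -0.81. All these relations rest on Arntl values between 21.3 and 55.4 units, close to or under the 34.4 units needed for a test between the diets.

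**Figure D4:**
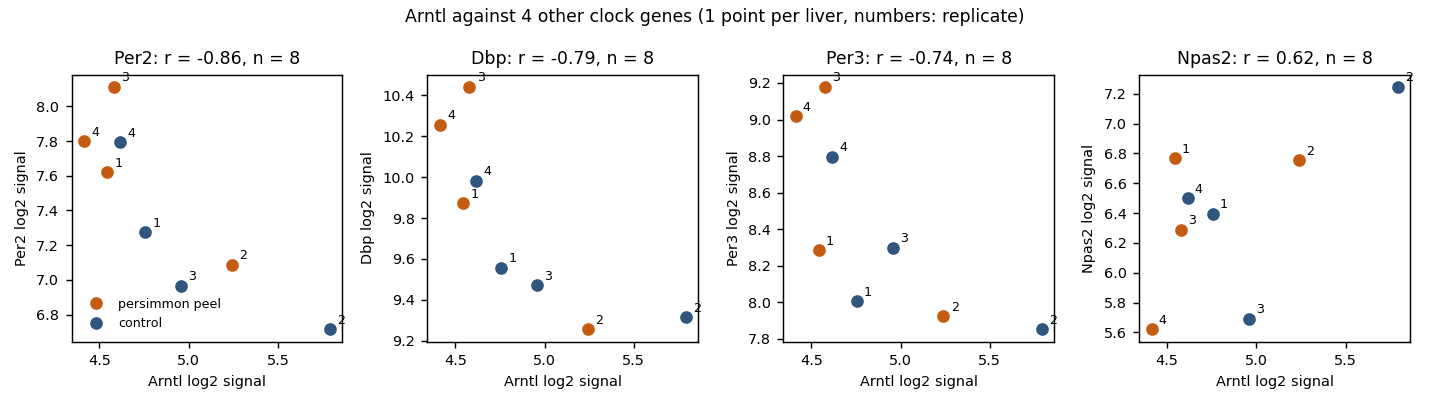
Log2 signal of Per2, Dbp, Per3 and Npas2 against that of Arntl, 1 point per liver with its replicate number, PP livers in orange and control livers in blue. The points slope downward for Per2, Dbp and Per3 (r = -0.86, -0.79 and -0.74), of which Per2 passed the test, and the upward slope for Npas2 (r = 0.62) depends on control liver 2 and PP liver 2.

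Ranked by correlation with Dbp over the 8 livers, among 9174 named genes that were tested, Per3 stood at rank 15 (r = 0.95) and Per2 at rank 27 (r = 0.95), ahead of Nr1d1 at rank 1490 (r = 0.70). The 5 genes closest to Dbp were Entpd2 (r = 0.99), Tie1 (r = 0.97), Nat9 (r = 0.97), Abhd16a (r = 0.97) and Fbxo21 (r = 0.97). Those closest to Arntl were Chmp2b (r = 0.91), Rab38 (r = 0.91), Dhx57 (r = 0.91), Clpx (r = 0.90) and Lamtor5 (r = 0.89). Where a gene had several tested sets, the set with the highest r gave its rank. In the Arntl ranking the Clock set 1389456_at stood at rank 14 (r = 0.84), whereas the brightest Clock set had r = 0.59, and Npas2 at rank 324 (r = 0.62). At the other end were Per3 at rank 9083, Dbp at 9126 and Per2 at 9158. All these values come from the same 8 arrays and describe likeness of pattern only.

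Outside the 10 genes, 24 further components of the clock loop were listed, of which 19 were on the array and 17 had 34 tested sets. Of these sets 1 was lower and 0 were higher, again near the background. At an unadjusted p under 0.05 there were 4 lower and 2 higher, against 13.4% and 6.19% of all tested sets. Their median log2 fold change was -0.02, against -0.01 over all tested sets. The lower set was Prkaa2, the AMP-activated kinase subunit whose kinase marks CRY proteins for breakdown in mouse cells. It averaged 815 ± 198 units in PP livers and 1170 ± 152 units in control livers (SD, n = 4 each; log2 fold change -0.54, SE 0.15, limma adjusted p = 0.0473), and it passed in 6 of 19 other settings. Cry2, the second cryptochrome, had signals of 230, 206, 412 and 342 units in PP livers and 196, 159, 187 and 190 units in control livers. All PP livers exceeded all control livers, which held for 2.87% of tested sets, with a log2 fold change of 0.65 (SE 0.18, limma adjusted p = 0.0588). Cry2 passed in 3 of 19 other settings, among them quantile normalization and leaving out PP liver 2, and over all settings its limma adjusted p lay between 0.0103 and 1. Higher calls over all tested sets numbered 271 under quantile normalization and 267 without PP liver 2, against 66 in the main comparison. The dimmer Cry2 set, 1369446_at, had a value of -0.33 (limma adjusted p = 0.432), so the sets of Cry2 differed in sign.

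The remaining components named by rule did not pass, although Csnk1d passed under median centring and Csnk2a1 under quantile normalization, and both without PP liver 2 (lowest limma adjusted p 0.016 and 0.0201). Lower calls over all tested sets numbered 848 under median centring and 942 without PP liver 2, against 703 in the main comparison. Csnk1d, the kinase that phosphorylates PER proteins, had a log2 fold change of -0.51 in set 1395914_at (SE 0.16, limma adjusted p = 0.0755). The other tested Csnk1d sets had -0.21, -0.18 and -0.07 (limma adjusted p between 0.218 and 0.744). Nono, a PER-binding RNA-binding protein, had -0.31 in set 1384257_at (limma adjusted p = 0.107) and -0.09 in its brighter set (limma adjusted p = 0.655). The casein kinase 2 subunit Csnk2a1 had 0.34 in set 1375636_at (limma adjusted p = 0.106). The other tested Csnk2a1 sets had -0.47, -0.22, -0.21 and 0.07 (limma adjusted p between 0.329 and 0.868), so the sets of Csnk2a1 also differed in sign. Hlf, a PAR bZIP factor like DBP, read 339, 314, 634 and 540 units in PP livers and 308, 275, 301 and 451 units in control livers (log2 fold change 0.42, SE 0.21, limma adjusted p = 0.288). Those were values of set 1386641_at, and the other tested Hlf sets had 0.27 and 0.08 (limma adjusted p = 0.382 and 0.827). As in Dbp, PP livers 3 and 4 were the highest in Hlf.

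Genes known from rodent liver to cycle over the day, under clock or feeding control, were listed next. Of 30 listed genes 22 had 30 tested sets, of which 6 were lower and 0 higher on the PP diet by limma, against a background of 4.53% and 0.425%. At an unadjusted p under 0.05 there were 14 lower and 0 higher, against 13.4% and 6.19% of all tested sets. The median log2 fold change of the list was -0.34, against -0.01 over all tested sets. The list was drawn up with earlier results on Ppara and Tat known. Lower calls on it numbered 2 under quantile normalization and 2 without an intensity trend. They numbered 0 with the beta-actin ratio as a covariate, 0 in the plain test and 1 without PP livers 1 and 3. With an array left out they ran from 3 to 11, the 11 without PP liver 2. Over all tested sets, lower calls were 596 under quantile normalization, 486 without the trend and 942 without PP liver 2, against 703 in the main comparison. The covariate fit called 0 of all tested sets. Lower calls over all of them numbered 3 in the plain test and 75 without PP livers 1 and 3.

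Nampt, whose enzyme makes NAD and is driven by the clock in mouse liver, read 56.4, 63.4, 56.1 and 41.3 units in PP livers and 151, 87.3, 111 and 107 units in control livers. The diets did not overlap, and the log2 fold change was -1.06 (SE 0.18, limma adjusted p = 0.0052). Its brighter set, 1389014_at, had -0.33 (limma adjusted p = 0.299), a gap between the sets of a gene like that in Nr1d2. Insig2, which holds back sterol synthesis and is a REV-ERB target in mice, read 1843, 2550, 1640 and 2153 units in PP livers and 3026, 3371, 2559 and 2938 units in control livers. These groups were apart by a small margin (log2 fold change -0.55, SE 0.12, limma adjusted p = 0.0177), and the second set had -0.39 (limma adjusted p = 0.0755).

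Lpin1, a phosphatidate phosphatase induced by fasting, averaged 853 ± 471 units in PP livers and 1690 ± 399 units in control livers (SD, n = 4 each; log2 fold change -1.11, SE 0.28, limma adjusted p = 0.0365). Its PP livers ranged from 457 to 1504 units, with PP liver 2 inside the control range. Pdk4, the kinase that shuts pyruvate dehydrogenase in fasting, averaged 93.8 ± 18.3 units in PP livers and 163 ± 46.8 units in control livers (SD, n = 4 each; log2 fold change -0.77, SE 0.20, limma adjusted p = 0.0378). These sets of Lpin1 and Pdk4 each passed in 6 of 18 other settings. Their brighter sets did not pass. Lpin1 set 1377599_at had -0.64 (limma adjusted p = 0.158), and Pdk4 set 1378074_at had -0.31 (limma adjusted p = 0.594). The former passed only without PP liver 2 and the latter only without control liver 4. The lipid receptor gene Ppara (-1.16) and the tyrosine aminotransferase gene Tat (-0.54) had the other sets called lower (limma adjusted p = 0.00658 and 0.01). The calls of Ppara and Nampt held under quantile normalization and those of Tat, Insig2, Lpin1 and Pdk4 did not. With the beta-actin ratio as a covariate the Insig2 value was 0.03, a change of sign.

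Other genes of this list did not pass in either direction in the main comparison. Of the 30 tested sets of the list, 22 had negative values (73.3%), against 51.4% of all tested sets. The uncalled genes nearest to the threshold were lower, Avpr1a (-0.43, limma adjusted p = 0.073) and Slc45a3 (-0.73, limma adjusted p = 0.0783), and both passed without PP liver 2. Lower calls over all tested sets numbered 942 in that fit, against 703 in the main comparison. Tfrc also passed as lower there, and Alas1 passed as lower without control liver 2. Usp2, a ubiquitin protease known to follow the clock, had log2 fold changes of 0.42 and 0.18 in its 2 sets (limma adjusted p = 0.454 and 0.727). Rgs16, a regulator of G protein signalling that answers to feeding, had 0.64 (SE 0.35, limma adjusted p = 0.33), and it passed without control liver 3, which had 378 units against 87.3 to 167 in the other control livers. Cyp7a1, the rate-limiting enzyme of bile acid synthesis, had 0.14 (limma adjusted p = 0.857), and Tspo, a mitochondrial outer membrane protein, had 0.17 (limma adjusted p = 0.579). Noct, a clock-driven phosphatase gene, averaged 127 ± 53.1 units in PP livers and 176 ± 37 units in control livers (SD, n = 4 each; limma adjusted p = 0.205). It passed as lower without PP liver 1.

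**Figure D5:**
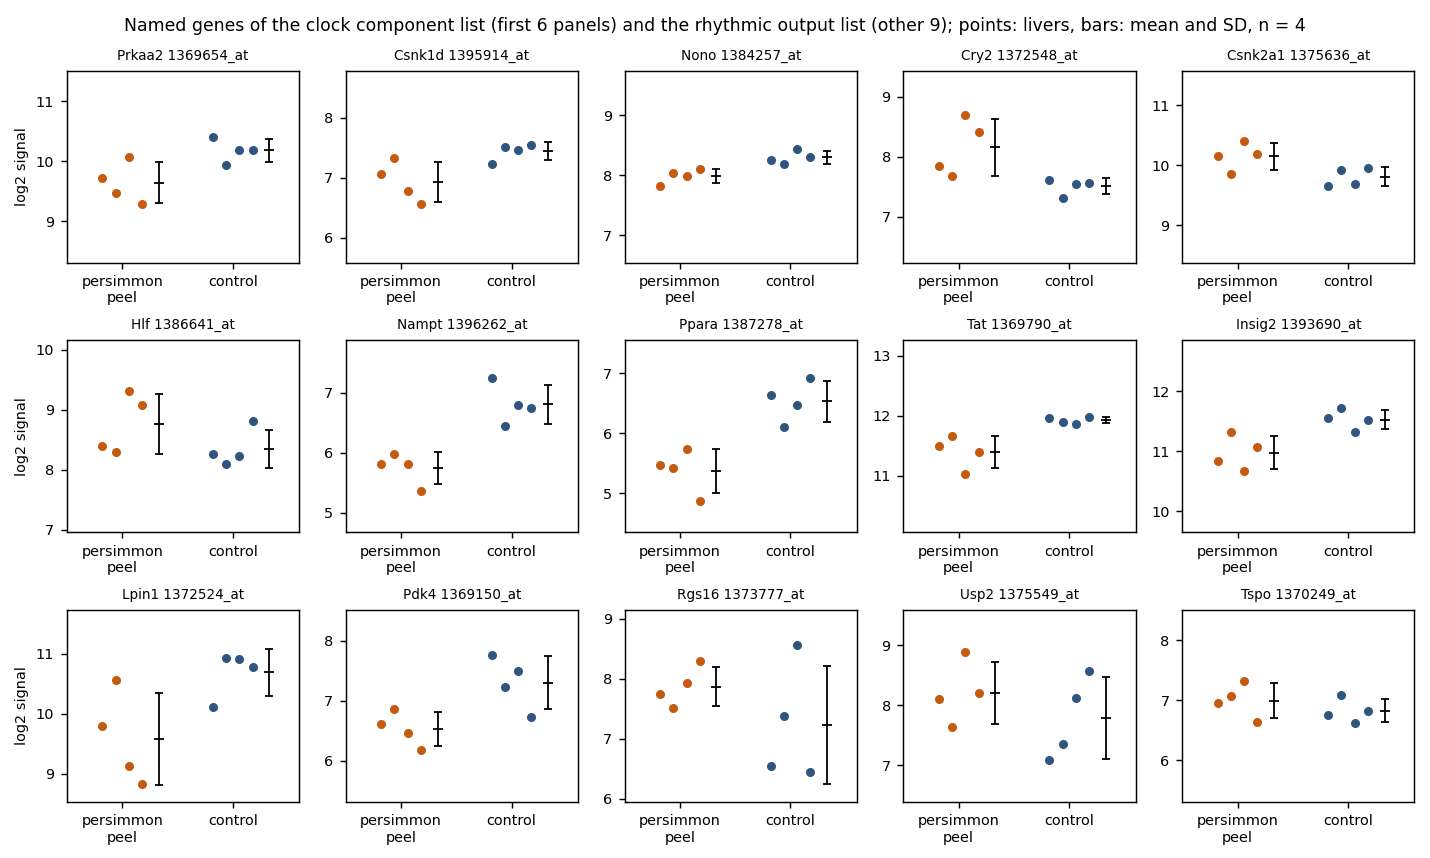
Log2 signal by liver of 15 named genes outside the 10 clock genes, PP livers left and control livers right, with the mean and SD (n = 4). The sets shown of Prkaa2, Nampt, Ppara, Tat, Insig2, Lpin1 and Pdk4 passed as lower on the PP diet. In the Cry2 set shown, the PP livers lie above all control livers without passing (limma adjusted p = 0.0588).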

How the data were processed

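Each array was 1 liver, grouped by its label. Intensity values on a linear scale were deposited by the authors for 31099 probe sets, and MAS5 is named without a version per the submitters' processing notes. Neither a scaling target nor detection calls were stated in the labels. Symbols came from the platform annotation, updated by gene number through a RefSeq table of assembly GRCr8.

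The log2 of the signals was used without a pseudocount or another normalization, since array medians spanned 0.24 on that scale. Leaving out 57 control sets and the dimmest 50% kept 15521 probe sets. PP and control livers were compared in limma (version 3.58.1, R 4.3.3) with an intensity trend, two-sided, called at an adjusted p under 0.05, and the fit was tested on simulated data. The members, lists, named genes and alternatives were chosen with earlier results of these data known. All probe sets of the 10 genes are named. From the 2 other lists those called and the 3 with the smallest p in each direction are named, and other sets of these genes or list members without a call were chosen after their values were seen. The number of arrays limits the precision, and p-values measure the spread between these livers.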

Additional observations from a re-analysis of the deposited data

Results flagged for a closer look

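In 3 of the 34 groups of 4 livers formed by the 17 probe sets and the 2 diets, 1 liver stood apart from the other livers of its diet by more of the range than Dixon's critical value for 4 samples. Chance flags about 1 in 20 such groups. For Clock set 1369168_a_at, PP liver 2 had a log2 signal of 4.49 (22.4 units), above the other PP livers. For Nr1d1 set 1370816_at, PP liver 3 had a log2 signal of 10.12 (1112 units), above the other PP livers. For Clock set 1380098_at, control liver 3 had a log2 signal of 5.40 (42.3 units), below the other control livers.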

How the results depend on the processing

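The call of Nr1d2 set 1370540_at held in 14 of 17 other settings and kept its sign in all 17. This set entered the test through its control livers, and of these settings only the fit with no filter did without a filter on dim sets. Lower calls among the clock sets numbered 0 with the upper 30% by signal and with the brightest set per gene, where that set was not tested, and 0 with the beta-actin covariate, without PP livers 1 and 3, and in the plain test. With an array left out they numbered 1 each time, and higher calls ranged from 0 to 1, the 1 being Dbp without PP liver 2. The diets share replicate numbers in the labels, but same-numbered livers did not deviate together (r of 0.02, -0.08, 0.05 and 0.04 for numbers 1 to 4 over the tested sets). The replicate block gave counts of 1 and 0 in the clock sets. With the block, other clock components had 1 higher set, Cry2. Rhythmic output then had 9 lower sets, within 1.5 times of 6. Among the clock sets, signs turned in 5 with the covariate (-0.24 for Cry1, -0.56 for Dbp, -0.41 for Per2, -0.32 for Per3 and -0.12 for Nr1d1), for Cry1 (-0.043) and the untested Clock set 1369168_a_at (0.12) without PP livers 1 and 3, and in 3 sets with an array left out, where values ran from -0.0604 to 0.1308 for Cry1, from -0.3564 to 0.1618 for Npas2 and from -0.2532 to 0.0518 for Per1. Of the other named sets, Insig2 (0.03), Csnk2a1 (-0.13) and Usp2 (-0.41) turned with the covariate. No set was called in a fit that turned its sign. For other clock components, lower calls numbered 0 under quantile normalization, no filter, the upper 30%, no trend, the covariate, the brightest set per gene and the plain test, 2 under median centring, and 0 to 1 with an array left out; higher calls numbered 2 under quantile normalization and 0 to 2 with an array left out. For rhythmic output, lower calls numbered 2 under quantile normalization, 3 with no filter, 2 with no trend, 0 with the covariate, 1 without PP livers 1 and 3, 3 with the brightest set per gene, 0 in the plain test and 3 to 11 with an array left out, and higher calls 0 to 1. Arntl relations past the threshold numbered 3 under quantile normalization, 3 under median centring, 0 as deviations from the diet means, 0 with the mean of all sets per gene and 0 to 1 with an array left out. The share of lower among all calls was 91.4% and became 68.7% under quantile normalization. The median of all tested sets was -0.11 with the covariate, and that fit called 0 of them. Over all tested sets, the plain test called 3 lower and 0 higher. The fit without PP livers 1 and 3 called 75 lower and 1 higher. Fewer sets or arrays enter some fits; otherwise the cause was not tested.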
